A study of Mus musculus with 10 samples.

Results

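The Krüppel-like factors described here were 10 of the 23230 genes in the deposited expression matrix, *Klf2*, *Klf3*, *Klf4*, *Klf5*, *Klf6*, *Klf7*, *Klf9*, *Klf10*, *Klf13* and *Klf15*, found by gene symbol and followed across all 10 RNAseq libraries. The list was drawn up with results of these libraries known, and the lower *Klf5* level in PT was among the values it was chosen by. The PT differences below are therefore descriptions, while the *Zfp423* comparison and the comparison of batches were tested. Both use the AstroEGFR* libraries that entered the choice, so for *Klf5* in particular they are not independent of it. The libraries came from a mouse model of glioma in which cortical astrocytes of C57BL/6 pups at P5, lacking p16 and p19 (*Ink4a/Arf*), carried a retroviral vector for human EGFRvIII, a truncated and constitutively active form of the EGF receptor. These cells, AstroEGFR*, were 3 independent astrocyte batches cultured in serum for fewer than 10 passages. PT denotes 4 cultures of glioma propagating cells from tumours that such astrocytes formed in the brain of CD1 Nude mice, grown without serum on laminin with EGF and FGF2. AstroEGFR* *Zfp423* denotes the 3 batches after infection with a vector for the zinc-finger factor *Zfp423*, which the labels call lentiviral and the study retroviral. The deletion of *Ink4a/Arf* and EGFRvIII were shared by all 10 libraries, so neither could be assessed, and the change of medium cannot be told apart from passage through a tumour.

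Krüppel-like factors are transcription factors that bind GC-rich and CACCC boxes through a closely similar set of C2H2 zinc fingers at the end of the protein, and they differ in the regions that recruit activators or repressors. *Klf2* and *Klf4* are best known from endothelium, where the ERK5 kinase and MEF2 factors induce them, and *Klf4* also as a reprogramming factor. *Klf5* is linked to proliferating epithelium and smooth muscle, *Klf3* binds the corepressor CtBP, *Klf10* was found as an early gene of TGF-β signalling, and *Klf9* and *Klf15* respond to glucocorticoid.

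The 250 bases before the start of transcription were available for 8 of the 10 factors in the RefSeq promoters used (assembly GRCm38.p6, while the expression values were made on mm9). *Klf5* and *Klf10*, the 2 factors past the threshold in PT with the astrocyte batch in the fit, had no entry there. Of the 8 windows, 4 are shown. *Klf2* and *Klf9* had the lowest differences in PT after *Klf5*, and *Klf4* had the largest mean difference with *Zfp423*. *Klf13* had the largest statistic between batches. None of these 4 passed the threshold in the fits as reported. Capitals mark CACCC and GGGCGG boxes on either strand, the boxes that proteins of this family themselves bind, and the MEF2 core, which is CTA and TAG separated by 4 bases. Each sequence is written 5′ to 3′ on the strand of its gene.
Klf2, chr8:72318812-72319061, plus strand: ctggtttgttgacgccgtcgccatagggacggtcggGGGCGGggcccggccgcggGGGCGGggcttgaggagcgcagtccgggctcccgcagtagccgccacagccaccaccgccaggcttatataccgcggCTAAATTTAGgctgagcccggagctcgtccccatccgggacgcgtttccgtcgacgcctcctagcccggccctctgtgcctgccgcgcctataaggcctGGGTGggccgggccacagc
Klf4, chr4:55532476-55532725, minus strand: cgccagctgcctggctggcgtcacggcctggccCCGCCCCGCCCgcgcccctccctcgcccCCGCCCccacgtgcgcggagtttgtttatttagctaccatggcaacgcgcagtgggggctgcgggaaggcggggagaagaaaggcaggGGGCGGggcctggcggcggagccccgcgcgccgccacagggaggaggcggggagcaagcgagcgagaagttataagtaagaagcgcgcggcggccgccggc
Klf9, chr19:23140976-23141225, plus strand: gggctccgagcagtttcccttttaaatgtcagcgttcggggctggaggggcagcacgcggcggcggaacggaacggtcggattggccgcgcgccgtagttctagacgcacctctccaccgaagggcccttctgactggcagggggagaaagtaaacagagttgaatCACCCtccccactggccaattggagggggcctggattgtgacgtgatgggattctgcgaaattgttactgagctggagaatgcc
Klf13, chr7:63938916-63939165, minus strand: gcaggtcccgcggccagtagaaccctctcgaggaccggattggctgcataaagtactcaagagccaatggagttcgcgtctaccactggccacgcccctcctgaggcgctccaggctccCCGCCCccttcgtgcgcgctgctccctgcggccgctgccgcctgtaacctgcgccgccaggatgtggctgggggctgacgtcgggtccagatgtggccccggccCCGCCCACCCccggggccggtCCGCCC

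All 8 windows were GC-rich, from 59.2% in *Klf7* to 78.4% in *Klf3*, against a median of 52.4% over the 32851 RefSeq promoters. GGGCGG was found in 7 of the 8 windows, all but that of *Klf9*, and in 32.7% of all promoters. CACCC was found in 6 of the 8, all but those of *Klf4* and *Klf6*, and in 52% of all promoters. In the *Klf13* window 1 CACCC overlapped a GGGCGG box read on the other strand. The MEF2 core occurred once, in *Klf2*, in the stretch printed above, and 3.2% of all promoters held it. The glucocorticoid response element, GNACA and TGTNC separated by 3 bases, was in none of the 8 windows and in 0.387% of all promoters. A match is a description of letters and no match says only that these letters were not in this window.

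Values are FPKM, fragments scaled to transcript length and library total, which allow levels of different genes to be set side by side. The sum of FPKM ranged from 361102 to 860068 over the libraries, and between 14075 and 17030 genes were above 0. *Zfp423* itself was at 3.25 to 4.30 FPKM in AstroEGFR*, 9.73 to 105 in AstroEGFR* *Zfp423* and 0.641 to 2.78 in PT, so each *Zfp423* library stood above each of the others. Markers of other cells differed widely. The 6 fibroblast and meninges markers summed to 312, 510 and 5138 FPKM in AstroEGFR* 1, 2 and 3, to 4522, 6273 and 228 in AstroEGFR* *Zfp423* 1, 2 and 3, and to between 1.08 and 372 in PT. The 6 microglia markers summed to 492 and 246 FPKM in AstroEGFR* *Zfp423* 1 and 2, against 0.976 to 36.6 in the other 8 libraries. The 6 astrocyte markers summed to between 121 and 947 FPKM in 9 libraries and to 4.97 in AstroEGFR* *Zfp423* 2, where *Gfap* was at 1.11 and *Aldh1l1* at 1.69 FPKM, so the defining markers of the labelled cell type were nearly absent there. The 6 oligodendrocyte lineage markers summed to 1356 and 1648 FPKM in PT 1 and PT 4 and to between 28.2 and 222 in the other 8 libraries. The 6 endothelial markers summed to 3.10 FPKM or less in every library. In bulk RNA, fewer cells of a type and less RNA per cell cannot be told apart.

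**Figure D1:**
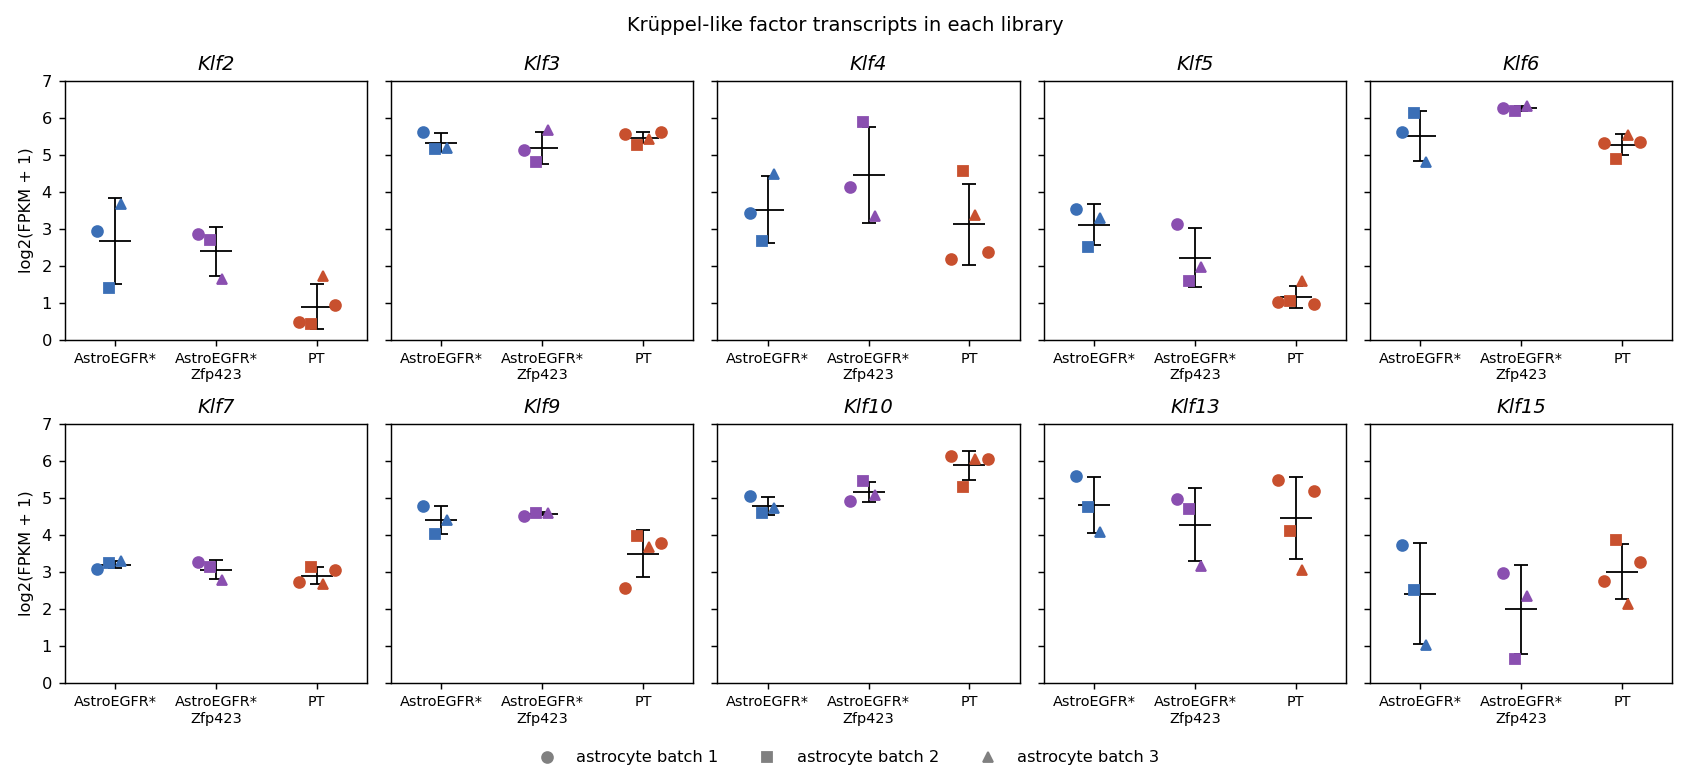
Level of each of the 10 factors as log2(FPKM + 1) on the vertical axis, in AstroEGFR* (3 libraries), AstroEGFR* Zfp423 (3) and PT (4). Each point is a library, its shape gives the astrocyte batch, and the bars are the mean and SD of the group. Klf5 in PT lies below each AstroEGFR* library, Klf10 in PT lies above, and Klf13 falls from batch 1 to batch 3 in every group.

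The 10 factors covered a wide range of levels in AstroEGFR*. By the mean of log2(FPKM + 1), *Klf6* was highest at 5.51 ± 0.67 (SD, n = 3), followed by *Klf3*, *Klf13*, *Klf10*, *Klf9*, *Klf4*, *Klf7*, *Klf5*, *Klf2* and *Klf15*, the lowest at 2.42 ± 1.36. No neighbours in this order were separated by more than the larger of their SDs. In PT the order opened with *Klf10* at 5.89 ± 0.39 (SD, n = 4), which stood above *Klf3* at 5.47 ± 0.16 by more than either SD. It closed with *Klf7*, *Klf5* and *Klf2* at 2.90, 1.15 and 0.89, where only the step of 1.75 between *Klf7* and *Klf5* was larger than the SDs. In AstroEGFR* *Zfp423*, *Klf6* was again highest at 6.26 ± 0.071 (SD, n = 3) and stood above *Klf3* by 1.07. The steps after *Klf10*, *Klf13* and *Klf7* also passed the SDs there, and *Klf15* was again last. Over the 10 libraries *Klf7* and *Klf3* were the steadiest, with highest and lowest FPKM 1.64 and 1.84 times apart, while *Klf2* spanned 34.5 times, *Klf15* 23.7 times, *Klf4* 16.5 times and *Klf5* 11.3 times.

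*Klf5*, the factor of proliferating epithelium, was at 10.7, 4.65 and 8.81 FPKM in AstroEGFR* 1, 2 and 3. In PT 1 to PT 4 it was at 1.02, 1.04, 1.99 and 0.940 FPKM. The groups did not overlap, and even the highest PT library was below the lowest astrocyte library. The difference between PT and AstroEGFR* was −1.97 ± 0.35 on the log2(FPKM + 1) scale (SE, 4 against 3 libraries), a scale that understates the change of low genes, and −2.57 with a pseudocount of 0.1 in place of 1. Set against the astrocyte batch it came from, each PT library was lower, with log2 differences of −2.53 and −2.59 for the tumours of batch 1 (PT 1 and PT 4), −1.47 in batch 2 and −1.71 in batch 3. *Klf5* was the 1 factor of the 10 past the threshold in this comparison (adjusted p below 0.05 by limma and Benjamini-Hochberg, 12261 genes), where 1.24% of all genes tested were past it and 0.922% in the lower direction, and since the list was chosen by this difference nothing is read from that count. When the fit included the astrocyte batch, *Klf5* and *Klf10* were past the threshold, as were 3.87% of all genes. The call on *Klf5* was lost when any 1 of the 4 PT libraries, AstroEGFR* 1 or AstroEGFR* 3 was left out, while the difference stayed between −1.75 and −2.27 in these fits and the one without AstroEGFR* 2. The call was also lost with PT 1 and PT 4 averaged, with median-ratio scaling and with all libraries in 1 fit (limma adjusted p = 0.126, 0.0503 and 0.0749). The fibroblast and meninges markers given above were also at lower sums in PT. They summed to 312 FPKM in AstroEGFR* 1 and to 34.7 and 8.28 in PT 1 and PT 4. In batch 2 the sums were 510 and 1.08, and in batch 3 they were 5138 and 372, so the ranges of the groups overlapped. All 6 markers had a negative difference, with a median of −3.94 beside 0.027 for all genes, 5 of them at an unadjusted p below 0.05 (limma). Their part in the *Klf5* difference was not tested.

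*Klf2*, the endothelial and T cell quiescence factor, was at 6.64, 1.62 and 11.7 FPKM in AstroEGFR* 1, 2 and 3. In PT 1 to PT 4 it was at 0.389, 0.340, 2.31 and 0.902 FPKM. PT 3 was above AstroEGFR* 2, so the groups overlapped, although each PT library was below its own batch, with log2 differences from −2.46 to −0.97. The difference between group means was −1.78 ± 0.60 (SE). It was −2.41 without AstroEGFR* 2, −1.27 without AstroEGFR* 3 and −2.60 with a pseudocount of 0.1, and the level in PT averaged 0.985 FPKM, below the filter of 1 FPKM that *Klf2* passed through the astrocytes. *Klf9*, a glucocorticoid and thyroid hormone response gene, was at 26.8, 15.4 and 20.2 FPKM in AstroEGFR* 1, 2 and 3 and at 4.87, 14.6, 11.8 and 12.7 FPKM in PT 1 to PT 4. These groups did not overlap, but PT 2 and AstroEGFR* 2, of the same batch, nearly met. The difference between group means was −0.92 ± 0.39 log2 units (SE), and −0.61 without PT 1, the lowest library. *Klf5* and *Klf9* were the 2 factors whose PT libraries all lay below the astrocytes, as was the case for 7.81% of all genes tested.

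*Klf10*, the early TGF-β gene, took the opposite direction. It was at 32.0, 23.0 and 25.4 FPKM in AstroEGFR* 1, 2 and 3, and at 69.1, 38.4, 65.7 and 65.6 FPKM in PT 1 to PT 4. Each PT library was above each astrocyte library, PT 2 by the smallest margin. PT was higher by 1.10 ± 0.28 log2 units (SE) without the block and by 1.04 ± 0.17 with it, and each PT library exceeded its own batch by 0.72 to 1.34. *Klf10* was the 1 factor whose PT libraries all lay above the astrocytes, as did those of 6.95% of all genes tested. The part of the oligodendrocyte lineage markers, high in PT 1 and PT 4, in the level of *Klf10* was not tested. They summed to 145 FPKM in PT 2, where *Klf10* was lowest of the 4, and to 130 in PT 3, where it was at the level of PT 4.

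For the other 6 factors the groups overlapped. *Klf3*, the CtBP-binding repressor, differed by 0.14 ± 0.22 log2 units between PT and AstroEGFR* (SE; 95% interval −0.38 to 0.65), with 37.3 to 47.7 FPKM in PT and 34.8 to 48.4 in the astrocytes. *Klf7*, known for axon growth in neurons, was at 5.37 to 7.85 FPKM in PT and 7.47 to 8.77 in AstroEGFR*, a difference of −0.30 ± 0.23. *Klf6*, an injury-induced factor, was at 28.5 to 45.5 FPKM in PT and 26.9 to 68.9 in AstroEGFR*, a difference of −0.24 ± 0.34. The other 3 factors varied more within each group than these did. *Klf4* was at 3.54 to 22.5 FPKM in PT and 5.35 to 21.2 in AstroEGFR* (−0.40 ± 0.66). *Klf13* was at 7.26 to 44.0 FPKM in PT and 16.1 to 47.8 in AstroEGFR* (−0.37 ± 0.64). *Klf15*, a regulator of glucose and amino acid metabolism, was at 3.39 to 13.6 FPKM in PT and 1.02 to 12.3 in AstroEGFR* (0.59 ± 0.67). Against their own batch, *Klf7* and *Klf13* were nevertheless lower in each PT library, with log2 differences of −0.35 (PT 1), −0.039 (PT 4), −0.086 (PT 2) and −0.62 (PT 3) for *Klf7* and of −0.12, −0.41, −0.67 and −1.05 for *Klf13*. With *Klf2*, *Klf5* and *Klf9* this made 5 factors lower in all 4 batch pairs, as were 18.2% of all genes tested, while *Klf10* was higher in all 4, as were 21.7%. The median difference of the 10 factors was −0.33, beside 0.027 for all genes tested.

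**Figure D2:**
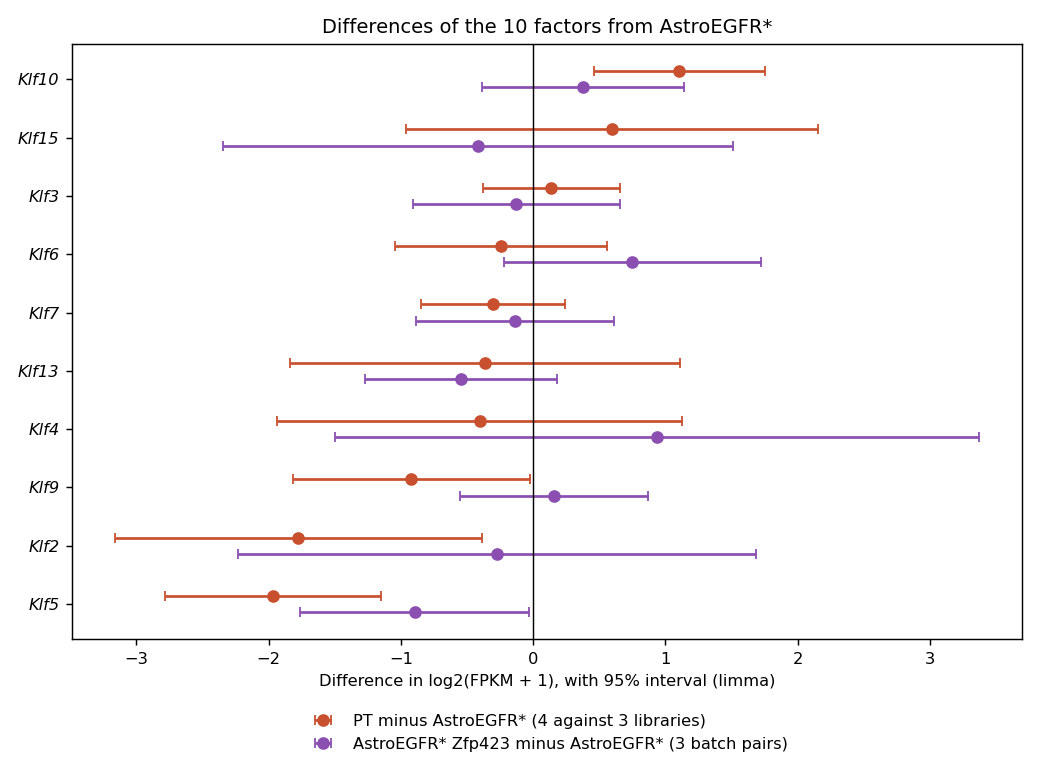
Difference in log2(FPKM + 1) from AstroEGFR* for each factor on the horizontal axis, with its 95% interval from limma, for PT (4 against 3 libraries) and for AstroEGFR* Zfp423 (3 batch pairs). Klf5 and Klf2 lie farthest below 0 in PT and Klf10 farthest above, while with Zfp423 only the interval of Klf5 lies wholly below 0.

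The second comparison asked how forced *Zfp423* expression moved the same factors, each batch against its own infected derivative as labelled. The pairs did not all look alike. Over 12476 genes the deviations from the group means correlated at 0.24 in batch 1 but at −0.11 and −0.26 in batches 2 and 3. Across the labels, AstroEGFR* 3 correlated with *Zfp423* 2 at 0.31 and AstroEGFR* 2 with *Zfp423* 3 at 0.22. The fibroblast and meninges sum of AstroEGFR* 3 was near those of *Zfp423* 1 and 2. *Zfp423* itself was at 3.48 FPKM in AstroEGFR* 3 and at 105 in its derivative, as the labels have it. Whether each pair shares its astrocyte batch was not tested, and the values of single batches below, in particular of batches 2 and 3, rest on the labels. None of the 10 factors passed the threshold (limma with the batch as a block, adjusted over 12366 genes), and 0% of all genes did, 0 of them. At an unadjusted p below 0.05 there were 913 genes, 1 of them, *Klf5*, among the 10. Without the block 2 genes passed and no factor did. With 3 pairs the spread between batches is estimated from few libraries, and a missing call does not show that the levels were the same.

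*Klf5* was lower in all 3 batches. It went from 10.7 to 7.69 FPKM in batch 1, from 4.65 to 1.98 in batch 2 and from 8.81 to 2.87 in batch 3. The difference was −0.90 ± 0.32 log2 units (SE, 3 pairs; 95% interval −1.76 to −0.028), with an adjusted p of 0.628 by limma. The astrocyte markers were also at lower sums in each batch, with 319 and 121 FPKM before and after the vector in batch 1, 305 and 4.97 in batch 2 and 947 and 780 in batch 3. All 6 had a negative difference, with a median of −1.93 and none past the threshold, 3 of them at an unadjusted p below 0.05 (limma), and their part in the *Klf5* difference was not tested. The lowest of the *Zfp423* libraries, at 1.98, was level with PT 3 at 1.99, and the other 2 were above every PT library. *Klf13*, known from T cells as an activator of a chemokine gene, was also lower in all 3 batches, from 47.8 to 30.5, from 26.3 to 25.1 and from 16.1 to 7.92 FPKM. The difference was −0.54 ± 0.27, with an adjusted p of 0.649 by limma, and −0.35 without batch 3. Batch 2 contributed least. These 2 factors were lower in each batch, as were 15.2% of all genes tested.

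*Klf6* was the 1 factor higher in all 3 batches, as were 16.3% of all genes. It went from 48.0 to 76.5 FPKM in batch 1, from 68.9 to 71.9 in batch 2 and from 26.9 to 79.4 in batch 3. The 3 *Zfp423* libraries lay within 71.9 to 79.4 FPKM whatever the level of their batch before infection. The difference was 0.75 ± 0.36 (limma adjusted p = 0.646), and 0.36 without batch 3.

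*Klf4* moved farthest and not in 1 direction. It went from 9.70 to 16.5 FPKM in batch 1 and from 5.35 to 58.5 in batch 2, and from 21.2 down to 9.22 in batch 3. The difference was 0.94 ± 0.89 (limma adjusted p = 0.779), and without batch 2 it was −0.20. *Klf2* went from 6.64 to 6.23 FPKM in batch 1, from 1.62 to 5.43 in batch 2 and from 11.7 to 2.09 in batch 3. As with *Klf4*, the library with the vector was the higher in batch 2 and the lower in batch 3. The mean difference of *Klf2* was −0.27 ± 0.72 (limma adjusted p = 0.926), and 0.61 without batch 3. The fibroblast and meninges markers summed to 510 and 6273 FPKM in batch 2 before and after the vector and to 5138 and 228 in batch 3, the same directions as *Klf2* and *Klf4*. In batch 1 they summed to 312 and 4522. The part of these markers, and of the microglia markers in *Zfp423* 1 and 2, in the differences of any factor was not tested. Endothelial markers, of the cells in which *Klf2* and *Klf4* are best known, were near 0 in all of these libraries.

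*Klf15* went from 12.3 to 6.91 FPKM in batch 1, from 4.65 to 0.572 in batch 2 and from 1.02 to 4.10 in batch 3, the reverse of *Klf2* and *Klf4* in batches 2 and 3. Its mean difference was −0.42 ± 0.71, and 0.29 without batch 2. *Klf10* was at 29.4, 43.0 and 33.1 FPKM with *Zfp423*, below its level in 3 of the 4 PT libraries, and differed by 0.38 ± 0.28, or by 0.13 without batch 2. *Klf9* was at 22.0, 23.4 and 23.0 FPKM, a narrow range, and differed by 0.16 ± 0.26 (95% interval −0.55 to 0.87). *Klf3* went from 48.4 to 33.9, from 34.8 to 27.0 and from 35.6 to 49.7 FPKM and differed by −0.13 ± 0.29 (95% interval −0.91 to 0.65). *Klf7* went from 7.47 to 8.71, from 8.39 to 7.71 and from 8.77 to 5.92 FPKM and differed by −0.14 ± 0.27 (95% interval −0.88 to 0.61). Neither moved in 1 direction in all 3 batches. The median difference of the 10 factors was −0.13, beside 0.020 for all genes tested.

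**Figure D3:**
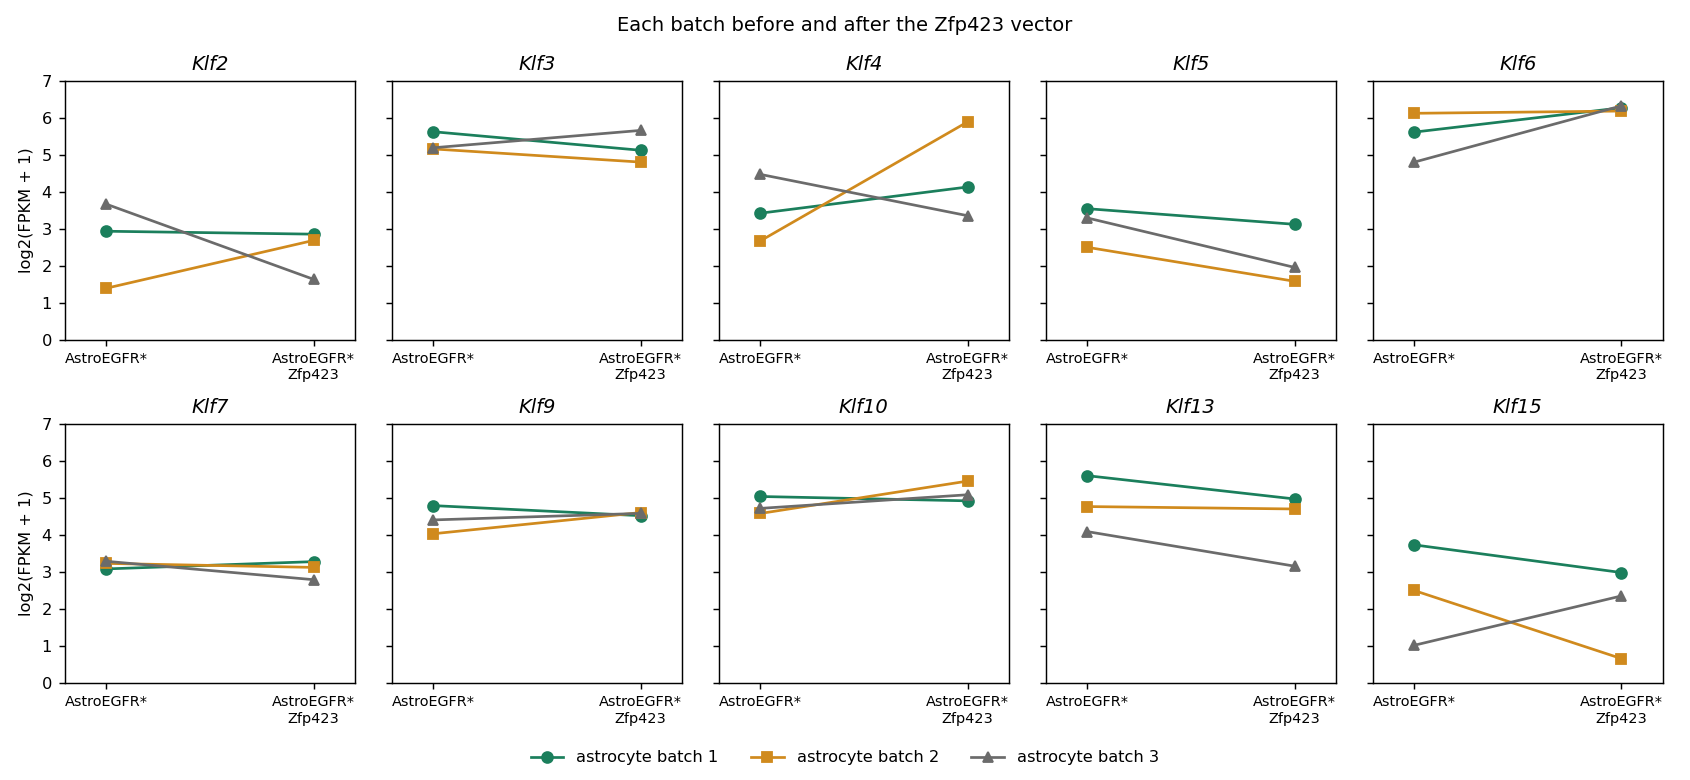
Level of each factor as log2(FPKM + 1) on the vertical axis in AstroEGFR* and in the AstroEGFR* Zfp423 derivative of the same batch, with a line for each of the 3 batches as labelled. Klf5 and Klf13 go down and Klf6 goes up in every batch, while Klf2, Klf4 and Klf15 go up in some batches and down in others.

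**Figure D4:**
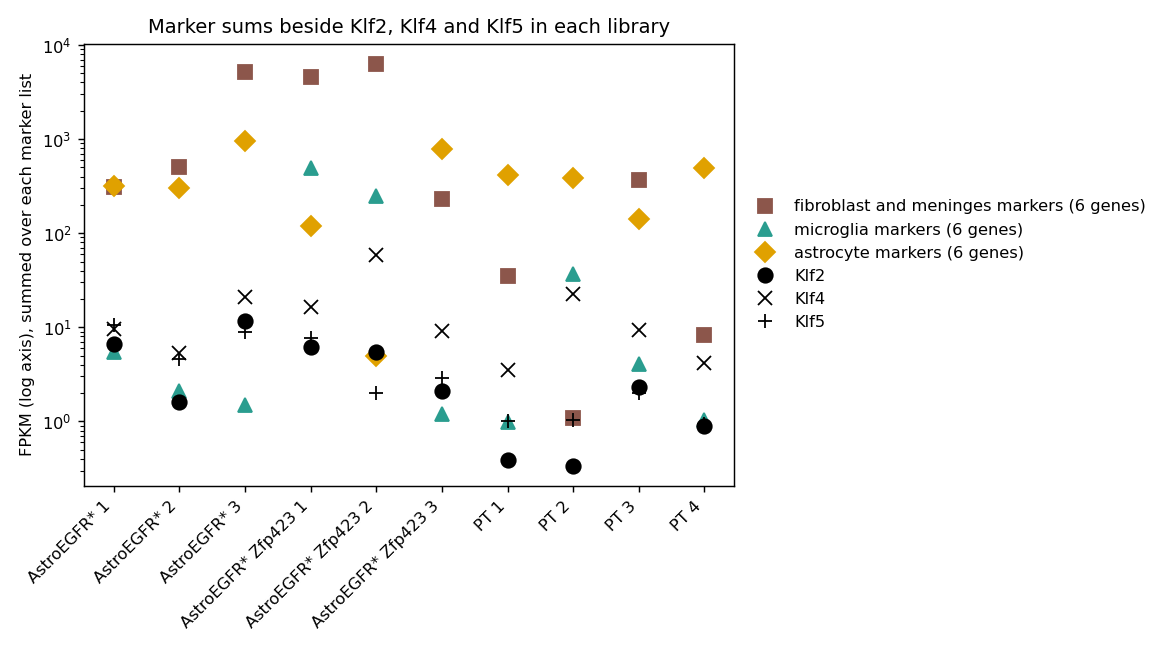
Summed FPKM of the fibroblast and meninges, microglia and astrocyte markers (6 genes each), with the FPKM of Klf2, Klf4 and Klf5, on a log axis for each of the 10 libraries. The fibroblast and meninges sum is highest, from 4522 to 6273, in AstroEGFR* 3 and AstroEGFR* Zfp423 1 and 2, and the astrocyte sum is lowest, at 4.97, in AstroEGFR* Zfp423 2.

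The third comparison asked whether the factors kept the level of their astrocyte batch through infection and tumour formation. A figure of the study ties PT 1 and PT 4 to batch 1, PT 2 to batch 2 and PT 3 to batch 3, while the labels give no batch for PT. *Klf13* did follow the batch order: it was at 47.8, 26.3 and 16.1 FPKM in AstroEGFR* of batches 1, 2 and 3, at 30.5, 25.1 and 7.92 in their *Zfp423* derivatives, and in PT at 44.0 and 35.7 for batch 1, 16.1 for batch 2 and 7.26 for batch 3. It was the 1 factor with batch 1 above batch 2 above batch 3 in every group, an order that 0.681% of all genes showed. That share covers this order alone, and the share of genes keeping any other batch order in every group was not computed. The order also takes *Zfp423* 2 and 3 as labelled. In the test of batch across all 10 libraries *Klf13* had F = 31.5 and an adjusted p of 0.112 (limma, 12476 genes, of which 0.0641% passed). None of the 10 factors passed there, 8 genes did, and at an unadjusted p below 0.05 there were 2539 genes, 1 of them, *Klf13*, among the factors. Without the *Zfp423* libraries *Klf13* had F = 32.4 and passed with an adjusted p of 0.0305, as did 6.57% of all genes. The next largest statistic among the factors in these 7 libraries was that of *Klf2*, F = 8.25 with an adjusted p of 0.111, and *Klf9* had the smallest, F = 0.078. The oligodendrocyte lineage markers summed to lower values in the same order of batches in AstroEGFR*, with 222, 127 and 61.1 FPKM, and in PT, with 1356 and 1648 in batch 1, 145 in batch 2 and 130 in batch 3. They ran the other way in the *Zfp423* derivatives, with 28.2, 52.6 and 160 FPKM, and their part in the order of *Klf13* was not tested. With the batch as a block, the difference of *Klf13* between PT and AstroEGFR* was −0.62 ± 0.21 log2 units, against −0.37 ± 0.64 without it. By their labels and the study's figure the libraries of a batch share their founding culture, so agreement within a batch would be a property of 3 lineages.

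**Figure D5:**
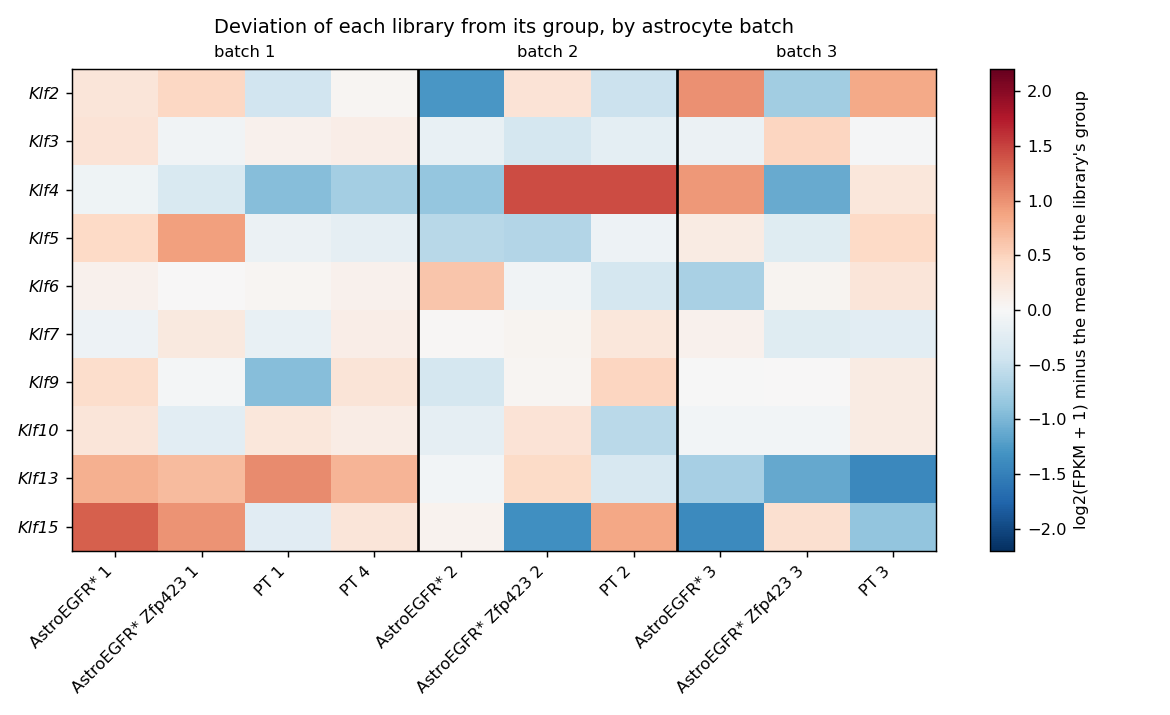
Each cell gives log2(FPKM + 1) of a factor in a library minus the mean of the library's group, in colour, with the 10 libraries ordered by astrocyte batch. In the row of Klf13 the 4 libraries of batch 1 are all above and the 3 of batch 3 all below their group means, while Klf4 and Klf15 change sign within batches 2 and 3.

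Other genes of the family were low or did not pass the test. Of the 7 further KLF genes, 3 had a mean of at least 1 FPKM in the fits, and of the 9 SP genes, their closest relatives, 4 did. None of the 3 and none of the 4 passed the threshold in PT or with *Zfp423* (limma; at an unadjusted p below 0.05, 1 KLF gene in PT and 1 SP gene with *Zfp423*, and no further calls in the fits with and without the block). The most abundant were *Sp3*, at 32.5 to 39.7 FPKM in PT and 36.5 to 48.7 in AstroEGFR*, *Sp1*, at 18.5 to 33.4 and 14.4 to 26.9, and *Klf16*, at 8.22 to 15.7 and 10.6 to 12.5. The KLF gene at an unadjusted p below 0.05, named after its values were seen, was *Klf12*, a repressor. It was at 0.583, 1.24 and 3.78 FPKM in AstroEGFR* and at 6.91, 7.71, 5.85 and 9.23 in PT, a difference of 1.70 ± 0.41 (limma adjusted p = 0.111). The SP gene, also named after its values were seen, was *Sp2*, with a difference of −1.13 ± 0.39 with *Zfp423* (limma adjusted p = 0.628).

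Genes around the factors were taken from lists of the pathways that act on them or through them. Over all genes tested 0.922% were called lower in PT and 1.24% in either direction, the shares to set beside the counts that follow. Of 10 coregulators and ubiquitin ligases of the family, such as CtBP and *Wwp1*, none passed in PT, nor did any of the 7 genes of the ERK5 and MEF2 pathway or of 14 immediate-early genes tested (limma; 1, 2 and 3 of them at an unadjusted p below 0.05). Of 10 tested genes reported as targets of the family, *Tagln*, an actin-binding protein of smooth muscle, fell from between 345 and 1629 FPKM to between 0.333 and 3.20, a log2 difference of −7.79 ± 0.62 (limma adjusted p = 0.0047). Of 7 early TGF-β targets, 2 fell and none rose in PT. These were the matrix protein gene *Ctgf* (−4.93 ± 0.72) and the inhibitory SMAD gene *Smad7* (−2.21 ± 0.28), with limma adjusted p of 0.026 and 0.0156. Of 8 tested glucocorticoid-response genes, the phosphatase gene *Dusp1* fell (−2.13 ± 0.35, limma adjusted p = 0.0372). All 6 fibroblast and meninges markers had a negative difference in PT, with a median of −3.94 and 5 at an unadjusted p below 0.05 (limma). Of these, *Pdgfrb*, also found on pericytes, was the 1 past the threshold (−4.14 ± 0.57, limma adjusted p = 0.020). None of 6 astrocyte, 5 oligodendrocyte lineage, 2 neuron and 1 microglia markers tested passed in PT (limma; 0 to 1 in each list at an unadjusted p below 0.05), and no endothelial marker reached the 1 FPKM needed to be tested. When the fit included the astrocyte batch, the calls of these lists in PT went from 5 to 12 while those of all genes went from 1.24% to 3.87%, the added ones being *Ier3*, an immediate-early gene, and *Ddit4*, a glucocorticoid-response gene, both higher, and *Lgals3*, *Ski*, *Aqp4*, *Col1a1* and *Col1a2*, lower, all named after their values were seen. With *Zfp423*, 0 genes of each of these lists passed, beside 0% of all genes, and again no endothelial marker was tested (limma; 0 to 3 in each list at an unadjusted p below 0.05, and no list gene without the block).

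The genes whose level followed *Klf5* most closely were found by Pearson's r of log2(FPKM + 1) over the 10 libraries among 12476 genes, as a description, since the libraries share batches and groups. The 10 highest were *Hs3st1*, a heparan sulfate sulfotransferase gene (r = 0.98), *Prelp*, a matrix proteoglycan gene (0.97), *Enkur* (0.97), *Kif9*, a kinesin gene (0.97), *Amica1*, an adhesion molecule gene (0.97), *Rdh10*, a retinol dehydrogenase gene (0.96), *Tmem53* (0.96), *Pdgfd*, a growth factor gene (0.95), *Glb1l* (0.95) and *Slco1a5*, an organic anion transporter gene (0.95). Several of them were below 1 FPKM in every PT library and passed the filter of 1 FPKM through the other libraries. Among these in PT were *Hs3st1* at 0.023 to 0.24, *Kif9* at 0.13 to 0.46, *Amica1* at 0 to 0.052 and *Slco1a5* at 0 to 0.30 FPKM. *Rdh10*, above the filter in every library, was at 54.3, 37.4 and 44.0 FPKM in AstroEGFR* 1 to 3, at 25.9, 10.8 and 15.5 in their *Zfp423* derivatives, and at 5.60, 7.67, 10.8 and 5.80 in PT 1 to PT 4. As for *Klf5*, the *Zfp423* libraries were the lower in each batch and the PT libraries lower than the astrocytes. Among the factors themselves the pattern nearest to *Klf5* was that of *Klf2* (r = 0.83 over 10 libraries) and the most opposed that of *Klf10* (r = −0.77), and over the 45 pairs of factors the median r was −0.010.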

How the data were processed

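RNAseq values of 10 mouse libraries were used: 3 of AstroEGFR*, 3 of AstroEGFR* *Zfp423* and 4 of PT. Their FPKM values for 23230 genes were deposited by the authors as 1 matrix, and every column was used. The submitters' processing notes name TopHat 1.3, Cuffnorm and mm9, and strand handling in the counting is not given in the sources used here. FPKM hold no counts, so depth and the precision it gives are unknown. The labels name a TruSeq kit and the study ribosomal RNA removal with stranded libraries.

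Differences were fitted with limma 3.58.1 (R 4.3.3) on log2(FPKM + 1), using its empirical Bayes moderation with an intensity trend, over all genes that averaged 1 FPKM or more in the libraries fitted, with Benjamini-Hochberg adjustment and a threshold of 0.05. PT was compared without a block, the *Zfp423* derivatives with the astrocyte batch as a block, and batches by a moderated F test with group as a term. The pairing comes from the shared astrocyte culture, with PT 1 and PT 4 placed in batch 1 as in a figure of the study, since the labels give no batch for PT. Deviations from group means correlated at 0.35 to 0.50 between PT and AstroEGFR* of the same batch, and at 0.24, −0.11 and −0.26 between *Zfp423* and AstroEGFR* of batches 1, 2 and 3 (12476 genes). They correlated at 0.31 between AstroEGFR* 3 and *Zfp423* 2 and at 0.22 between AstroEGFR* 2 and *Zfp423* 3. An exact permutation test over single values cannot go below 0.0286 (4 against 3) or 0.25 (3 pairs). The scripts were tested on simulated data.

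The factors and all lists were chosen with earlier results of these data known, and 1 gene of a list is not reported here. Named genes were the 10 factors in both comparisons, of the other KLF and SP genes those past the threshold and the 3 with the highest mean FPKM, of each other list up to 3 genes past the threshold by absolute difference, and the 10 genes with the highest r with *Klf5*; 9 genes outside this rule are named as chosen after their values were seen. Promoter sequences came from RefSeq (GRCm38.p6). The alternatives tried were the block, averaging PT 1 and PT 4, a pseudocount of 0.1, median-ratio scaling, all libraries in 1 fit, no filter, no trend and leaving out libraries.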

Additional observations from a re-analysis of the deposited data

Results flagged for a closer look

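In PT, *Klf5* had 1 library far from the rest, PT 3 at 1.99 FPKM against 0.940 to 1.04 in the other 3, with a gap to range ratio of 0.879, taken on log2(FPKM + 1), that passes Dixon's 95% value for 4 libraries. *Klf10* in PT had a ratio of 0.910 on the same scale, with PT 2 at 38.4 FPKM against 65.6 to 69.1 in the other 3. All 10 factors were examined in this way in PT, and chance flags about 1 in 20 such groups.

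The difference between *Zfp423* and AstroEGFR* libraries had opposite signs in different batches, by at least 1 log2 unit each way, for 3 factors. For *Klf2* it was 1.30 in batch 2 and −2.04 in batch 3. For *Klf4* it was 3.23 in batch 2 and −1.12 in batch 3. For *Klf15* it was 1.34 in batch 3 and −1.85 in batch 2. With 1 pair of libraries in each batch these differences between batches were not tested. The values rest on the pairing of batches 2 and 3 as labelled, where deviations from the group means correlated at −0.11 and −0.26. Across the labels the deviations correlated at 0.31 (AstroEGFR* 3 with *Zfp423* 2) and 0.22 (AstroEGFR* 2 with *Zfp423* 3).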

How the results depend on the processing

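Of the 10 factors, 1 passed in PT in the fit as reported, 2 passed with the astrocyte batch as a replicate block (*Klf5* and *Klf10*), and 0 passed with PT 1 and PT 4 averaged, with median-ratio scaling, with all 10 libraries in 1 fit, without the filter or without the batch 3 libraries. Leaving out 1 library at a time gave 0 to 1, with *Klf5* past the threshold without AstroEGFR* 2 alone. Over these alternatives except the fit without the filter, and with another pseudocount, the *Klf5* difference in PT kept its sign, with adjusted p from 0.034 to 0.234. No factor passed with *Zfp423* in any alternative, and no gene at all passed there in the fit as reported, and the fit without the replicate block changed no call on them. Leaving out batch 2 raised the calls over all genes there from 0 to 51. The batch test called 1 factor, *Klf13*, without the *Zfp423* libraries and 0 otherwise. Genes called in the other lists numbered 5, and 12 with the replicate block in PT and no replicate block for *Zfp423*. Over all genes the PT calls were 152 in the fit as reported, 475 with the block, 61 with PT 1 and PT 4 averaged, 62 with all libraries in 1 fit, 8 without the batch 3 libraries, and 7 without AstroEGFR* 1. The sign turned only when 1 library (PT) or 1 batch pair (*Zfp423*) was left out, and the differences then ranged in PT from −0.88 to 0.072 for *Klf4* (highest without AstroEGFR* 3), −0.60 to 0.065 for *Klf6* (without AstroEGFR* 2), −0.73 to 0.10 for *Klf13* (above 0 without PT 3 or AstroEGFR* 1) and −0.11 to 1.25 for *Klf15* (lowest without AstroEGFR* 3). With *Zfp423* they ranged from −1.06 to 0.61 for *Klf2* and −0.30 to 0.045 for *Klf7* (both above 0 without batch 3), −0.43 to 0.057 for *Klf3* (above 0 without batch 1), and −0.20 to 1.97 for *Klf4*, −0.048 to 0.38 for *Klf9* and −1.30 to 0.29 for *Klf15* (signs turned without batch 2). The cause was not tested. Median-ratio scaling moved the median of all genes by 0.0136 in PT and 0.0156 with *Zfp423*.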
